A study of Mus musculus with 2 samples.

Results

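The 10 genes described here (Slc2a1, Pdk1, Bnip3, Higd1a, Egln3, Kdm3a, P4ha1, Adm, Ndrg1 and Ankrd37) are named targets of the hypoxia-inducible factors. They were taken by symbol from the 32285 genes counted in 2 single-nucleus RNA libraries, and all 10 were found. Nuclei came from the tibialis anterior, the shin muscle that lifts the foot. The mice were male, 16 to 20 weeks old and had chronic kidney disease, and their femoral artery had been ligated 5 days earlier. The library labelled AHRfl/fl stands for mice whose Ahr gene carries recombination sites. The library labelled AHRmKO stands for mice in which Ahr is to be deleted in muscle. Ahr encodes the aryl hydrocarbon receptor, a transcription factor activated by small molecules. Both labels list the same cross, AHRtm3.1Bra/J with Tg(ACTA1-cre/Esr1*)2Kesr/J, in which a skeletal actin promoter drives a Cre recombinase fused to a hormone receptor, so that Cre is meant to act in muscle fibres only. Kidney disease, ligation, sex and age were thus shared by both groups. The number of animals per library is not stated, and each group has 1 library, so genotype cannot be told apart from any other difference between the libraries.

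When oxygen is plentiful, prolyl hydroxylases of the EGLN family mark the alpha subunits HIF1A and EPAS1 for destruction by way of VHL. When oxygen falls the alpha subunits persist, pair with ARNT and bind DNA at short sites with the core ACGTG or GCGTG near genes for glucose uptake, mitochondrial turnover, matrix hydroxylation and vessel tone. ARNT is also the partner of AHR, and a muscle with a ligated artery is a setting in which this response is studied.

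The libraries held 151788328 UMIs (unique molecular identifiers, 1 per captured RNA molecule) for AHRfl/fl and 113737134 for AHRmKO. After filters 15832 and 7520 nuclei remained, with medians of 3672.5 and 3599 UMIs and of 0.822% and 2.29% mitochondrial UMIs, and 31 barcodes occurred in both libraries. The nuclei fell into 22 clusters, of which the named ones formed 8 marker-defined classes with at least 50 nuclei in each library. In AHRfl/fl and AHRmKO these held 384 and 584 adult fibre-like, 2185 and 1001 regenerating fibre-like, 1557 and 1067 myocyte-like, 2694 and 1553 satellite-like, 6489 and 2386 macrophage-like, 1400 and 613 fibroblast-like, 315 and 163 endothelial-like, and 115 and 85 adipocyte-like nuclei. All 11 macrophage, 9 fibroblast, 10 endothelial and 7 adipocyte markers were highest in their own class in both libraries. In AHRfl/fl and AHRmKO, 6 and 12 of 12 adult fibre and 6 and 7 of 9 regenerating fibre markers were so. The same held for 6 and 7 of 7 myocyte and 6 and 6 of 9 satellite markers. The fibroblast-like, endothelial-like and adipocyte-like classes were each 1 cluster shared by both libraries. The other classes were made up largely of different clusters in each library, and such a cluster may reflect the library rather than a cell type. In the adult fibre-like class cluster 3, led by Trp63, Trim63 and Fbxo32, held 383 of 384 AHRfl/fl nuclei, while cluster 21, led by Agbl1 and Mylk4, held 513 of 584 AHRmKO nuclei. Ahr itself was at 4.79 CPM (9 UMIs) in AHRfl/fl and 4.90 CPM (10 UMIs) in AHRmKO adult fibre-like nuclei. On these few UMIs the deletion was not visible there. The regenerating fibre-like class, with 494 and 237 Ahr UMIs, showed no lower level in AHRmKO either (38.4 and 42.4 CPM). Myocyte-like levels were 20.1 CPM from 141 UMIs in AHRfl/fl and 16.3 CPM from 82 UMIs in AHRmKO. These counts are summed over the gene, and whether a deletion of all or part of it would lower them was not tested. Directions below are between libraries as labelled.

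Promoters of the members were read from RefSeq (GRCm38.p6), 250 bases before to 50 bases after the start site, where 9 of the 10 genes had an entry, with 12 promoters among them. Ndrg1 had none. The core ACGTG, searched on both strands, occurred in 6 of these 12 promoters, 1 each of 6 genes, and 19.6% of all 32851 promoters of that length held it. The core GCGTG, searched the same way, occurred in 8 of the 12 promoters, 1 each of 8 genes, and in 32.4% of all promoters. Pdk1, Kdm3a and Adm had no ACGTG in these windows but each had GCGTG in 1 promoter, while Egln3 had ACGTG only. Positions below count the first base of the match, with the start site as base 1. Shown are the promoters with ACGTG of 5 genes, to compare where the match lies, with ACGTG, or CACGT where it lies on the other strand, in capitals. The promoter of Adm, the only member called higher in AHRmKO over a class, follows as one without it.
Slc2a1 promoter, chr4:119108495-119108794, plus strand, match at -36: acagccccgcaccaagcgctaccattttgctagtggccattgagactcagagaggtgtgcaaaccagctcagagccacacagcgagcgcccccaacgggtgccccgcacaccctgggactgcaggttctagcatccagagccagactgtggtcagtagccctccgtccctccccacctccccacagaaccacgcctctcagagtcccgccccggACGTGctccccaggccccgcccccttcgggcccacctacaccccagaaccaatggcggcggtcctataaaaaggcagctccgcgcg
Bnip3 promoter, chr7:138909457-138909756, minus strand, overlapping matches on both strands at -108 and -107: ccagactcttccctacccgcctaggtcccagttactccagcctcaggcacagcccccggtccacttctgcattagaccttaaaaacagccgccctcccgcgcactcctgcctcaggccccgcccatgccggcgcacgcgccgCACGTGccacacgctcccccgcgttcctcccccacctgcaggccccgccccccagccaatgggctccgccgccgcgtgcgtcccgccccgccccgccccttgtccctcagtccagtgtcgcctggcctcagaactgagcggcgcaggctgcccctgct
Higd1a promoter, chr9:121857747-121858046, minus strand, match at 44: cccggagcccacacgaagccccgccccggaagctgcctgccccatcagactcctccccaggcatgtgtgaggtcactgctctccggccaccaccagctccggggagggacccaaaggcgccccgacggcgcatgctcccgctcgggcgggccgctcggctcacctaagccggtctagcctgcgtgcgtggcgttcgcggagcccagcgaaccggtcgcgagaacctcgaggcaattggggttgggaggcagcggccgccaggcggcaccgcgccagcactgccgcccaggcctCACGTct
Egln3 promoter, chr12:54203825-54204124, minus strand, match at -229: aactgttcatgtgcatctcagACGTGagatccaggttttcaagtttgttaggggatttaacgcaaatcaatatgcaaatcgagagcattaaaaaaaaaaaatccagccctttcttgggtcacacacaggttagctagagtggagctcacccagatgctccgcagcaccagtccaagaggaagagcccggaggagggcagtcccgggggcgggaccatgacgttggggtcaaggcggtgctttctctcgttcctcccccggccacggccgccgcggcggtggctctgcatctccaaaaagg
P4ha1 promoter, chr10:59323046-59323345, plus strand, match at -16: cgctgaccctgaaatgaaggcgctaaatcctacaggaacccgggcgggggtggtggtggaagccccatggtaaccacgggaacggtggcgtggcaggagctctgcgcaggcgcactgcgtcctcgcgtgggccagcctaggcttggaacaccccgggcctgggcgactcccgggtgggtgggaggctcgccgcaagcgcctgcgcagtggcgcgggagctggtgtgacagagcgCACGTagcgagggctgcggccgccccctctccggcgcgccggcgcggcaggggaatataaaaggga
Adm promoter, chr7:110627407-110627706, plus strand, no match: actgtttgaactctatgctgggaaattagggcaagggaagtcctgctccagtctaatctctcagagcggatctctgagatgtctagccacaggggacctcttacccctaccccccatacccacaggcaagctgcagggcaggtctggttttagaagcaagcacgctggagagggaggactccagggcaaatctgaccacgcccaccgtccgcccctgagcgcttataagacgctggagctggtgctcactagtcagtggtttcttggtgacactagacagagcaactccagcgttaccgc
The P4ha1 and Slc2a1 matches lay close to the start site, whereas that of Egln3 lay near the far end of its window. Ankrd37, whose promoter is not shown, had matches at both ends of this range, at -6 and -241. A match is a run of letters and was not measured as a bound site.

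Levels are given as counts of a gene per 1000000 UMIs of the class (CPM), with 95% exact Poisson intervals in brackets, in AHRfl/fl first and AHRmKO second. They were compared between classes within a gene and never between genes. Because free RNA from broken cells enters every droplet, each level of a member was set beside that in barcodes of 200 to under 500 UMIs, which are mostly droplets without a nucleus. The most that free RNA could give in a class was the level in those barcodes times the largest share of free RNA in the class, as bounded by markers of other lineages. That share reached at most 56.4%, in AHRmKO satellite-like nuclei. Where free RNA is said to be subtracted below, this full bound was taken off. Such values are thus a limit and not an estimate. A level is called above free RNA only where the lower end of its counting interval exceeds this bound. By that rule Kdm3a and P4ha1 stood above free RNA in 8 of 8 classes of both libraries. Adm did so in only 3 of 8 classes in either library, and Ndrg1 in 5 and 4.

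**Figure D1:**
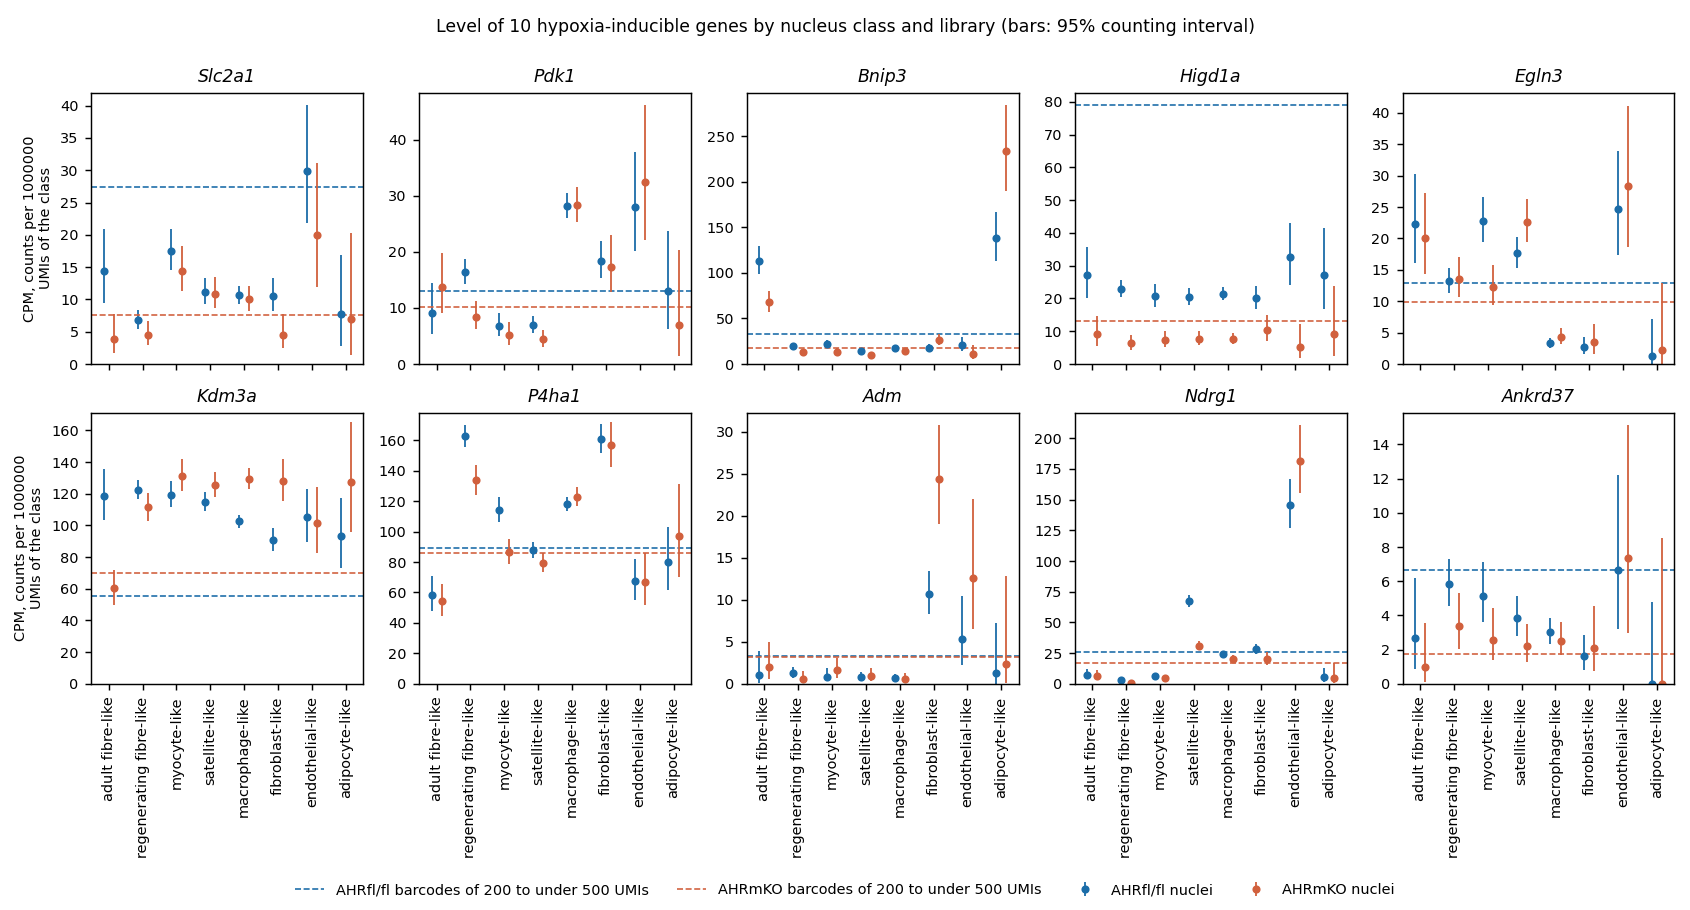
Level of each gene in CPM (vertical axis) in 8 nucleus classes (horizontal axis), with AHRfl/fl in blue, AHRmKO in orange, bars for 95% counting intervals and dashed lines for barcodes of 200 to under 500 UMIs. Bnip3 is highest in adipocyte-like nuclei (138 and 233 CPM), Ndrg1 in endothelial-like nuclei (146 and 181 CPM), and Higd1a is lower in AHRmKO in every class.

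Between the libraries, the 10 genes did not all move the same way. A ratio was called where it passed 2-fold (log2 of 1) and its 95% counting interval left out 0. Of 80 combinations of gene and class, 73 had 10 or more UMIs over both libraries, and of these 10 were called lower and 1 higher in AHRmKO. Higd1a gave 6 of the 10, and Slc2a1 and Ndrg1 2 each, while 6 of the genes were called in no class. Called or not, 27 of the 73 ratios had an interval below 0 and 8 had one above 0. The share of all genes with such intervals is not given here. The 7 combinations under 10 UMIs were Adm and Ankrd37 in adult fibre-like nuclei and Adm, Ankrd37, Egln3, Ndrg1 and Slc2a1 in adipocyte-like nuclei. All calls compare 2 libraries, and without replicates no test between genotypes was possible.

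With 10 genes or fewer a class, these counts of 0 to 2 are read against the share of all genes called in the same direction, and they lay near it. In adult fibre-like nuclei 0 of 8 members were higher and 2 lower in AHRmKO, where 9.24% and 18.3% of 12577 genes were so called. In regenerating fibre-like nuclei 0 of 10 were higher and 2 lower, beside 5.83% and 17.6% of 16687 genes. The myocyte-like class had 0 of 10 higher and 1 lower, beside 6.18% and 15.6% of 15642 genes. Satellite-like nuclei gave 0 of 10 higher and 2 lower, beside 5.65% and 16.7% of 17183 genes. With 0 of 10 higher and 1 lower, macrophage-like nuclei stood beside 3.73% and 16.9% of 17441 genes. Fibroblast-like nuclei had 1 of 10 higher and 1 lower, beside 5.63% and 17.7% of 15903 genes. Of 10 members in endothelial-like nuclei 0 were higher and 1 was lower, beside 4.8% and 18.1% of 12654 genes. For the 5 genes left in adipocyte-like nuclei both counts were 0, beside 7.53% and 12.9% of 10634 genes.

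As a description, the median log2 ratio of the members was -0.45 in adult fibre-like, -0.65 in regenerating fibre-like, -0.47 in myocyte-like and -0.32 in satellite-like nuclei, against medians of -0.11, -0.16, -0.07 and -0.11 over all genes with 10 UMIs. In macrophage-like nuclei both medians were -0.09. In fibroblast-like, endothelial-like and adipocyte-like nuclei the members' median was 0.12, 0.06 and 0.27, against -0.11, -0.14 and -0.10. In the main analysis the members' median was thus below that of all genes in the 4 muscle lineage classes and above it in the 3 classes that were single shared clusters. This order depended on the processing. It turned in the shared adult fibre-like cluster 3 alone (-0.16 against -0.20) and in fibroblast-like nuclei with a minimum of 4000 UMIs (-0.15 against -0.14). In endothelial-like nuclei it turned with the class taken from the markers in each nucleus (-0.17 against -0.08).

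**Figure D2:**
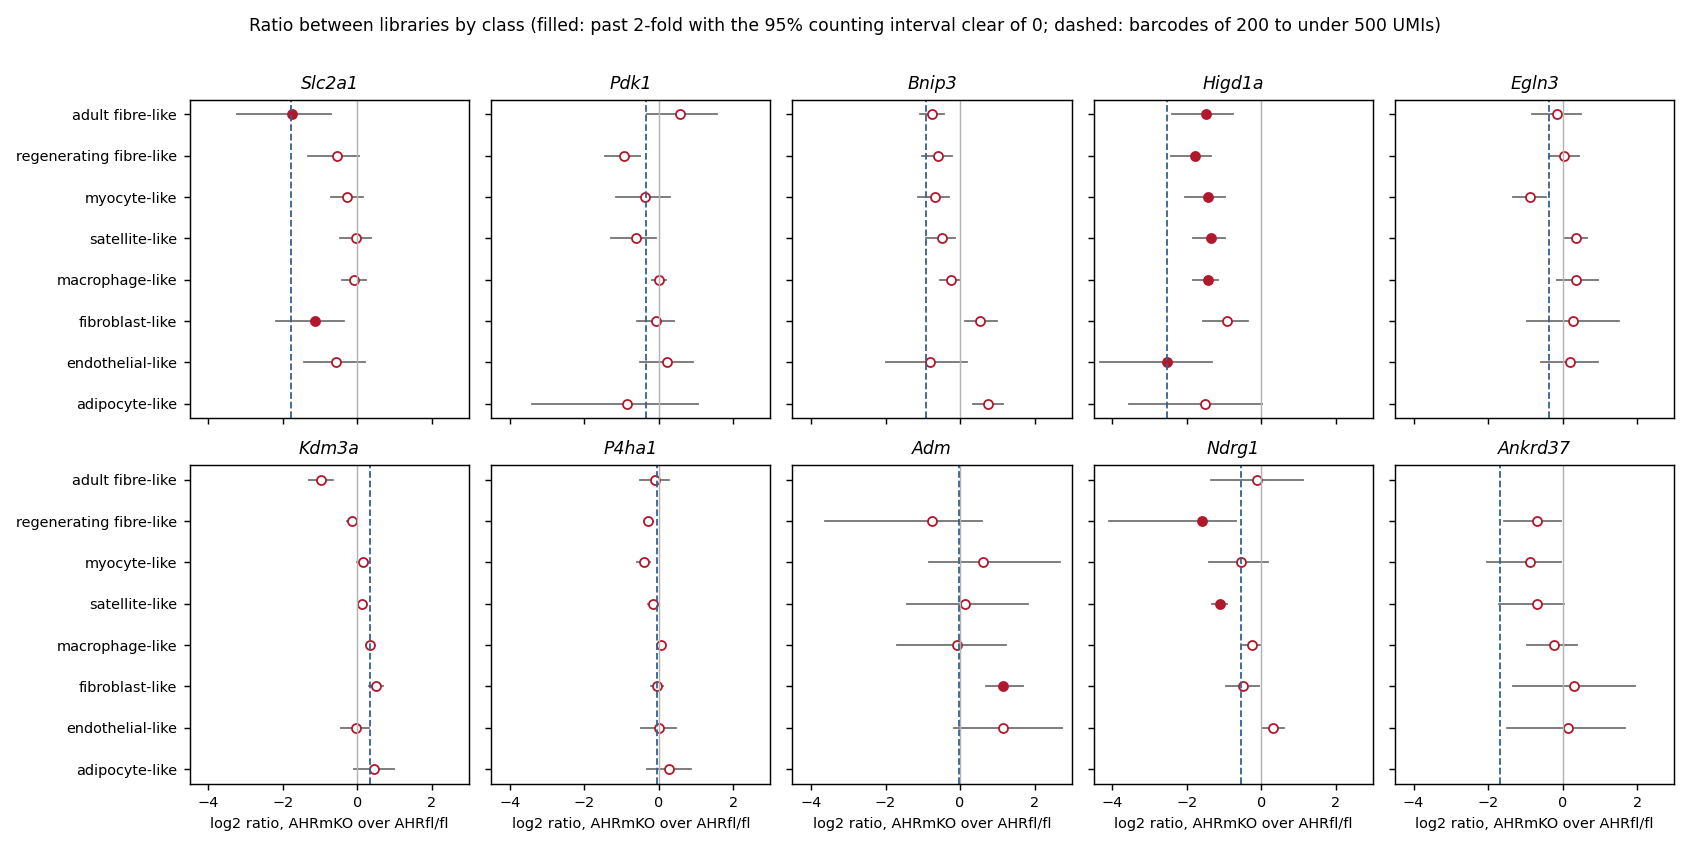
Log2 ratio of AHRmKO over AHRfl/fl (horizontal axis) by nucleus class (vertical axis) for each gene with 10 or more UMIs, with lines for 95% counting intervals, filled points for calls and a dashed line for the ratio in barcodes of 200 to under 500 UMIs. Higd1a holds 6 of the 11 filled points, and its points lie to the right of its dashed line at -2.54, with the endothelial-like point (-2.53) next to it.

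Slc2a1 (ENSMUSG00000028645, chr4:119108711-119137983, plus strand) encodes GLUT1, a transporter for basal glucose uptake. It was highest in endothelial-like nuclei, at 29.9 CPM (21.8 to 40.1; 45 UMIs) in AHRfl/fl and 19.9 (12.0 to 31.1; 19 UMIs) in AHRmKO. Myocyte-like nuclei came next, at 17.5 and 14.5 CPM. Only in AHRfl/fl did the endothelial-like level exceed the next beyond counting error.

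In adult fibre-like nuclei Slc2a1 was at 14.4 CPM (9.47 to 20.9; 27 UMIs) in AHRfl/fl and 3.92 (1.69 to 7.72; 8 UMIs) in AHRmKO, a log2 ratio of -1.75 (-3.22 to -0.70). The intervals did not overlap, but the lower end of the AHRmKO interval lay under the 2.54 CPM that free RNA could give. With the class of each nucleus taken from its own marker UMIs the ratio was -0.74. Within cluster 3 Slc2a1 had 27 UMIs in AHRfl/fl and 1 in AHRmKO, a ratio of -1.84 (-7.33 to 0.63) that was not called. Cluster 21 held 7 of the 8 AHRmKO UMIs. Fibroblast-like nuclei, a cluster shared by both libraries, had 10.5 CPM (8.23 to 13.2; 72 UMIs) and 4.52 (2.40 to 7.72; 13 UMIs), a ratio of -1.14 (-2.20 to -0.36). That ratio came to -0.71 with each nucleus thinned to 2000 UMIs, -0.84 with free RNA subtracted, -0.93 with a minimum of 1000 UMIs and -0.94 with 2 CPM added before the log. In satellite-like (11.2 and 10.8 CPM) and macrophage-like nuclei (10.7 and 10.0) the levels overlapped. In barcodes of 200 to under 500 UMIs Slc2a1 itself stood at 27.4 CPM in AHRfl/fl and 7.58 in AHRmKO, a ratio of -1.79, and the part of this in the fibre and fibroblast values was not tested. No source used here says whether reads were counted by strand, and Gm12867 and Gm12868 lie on the opposite strand within its span.

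Pdk1 (ENSMUSG00000006494, chr2:71873224-71903858, plus strand) encodes a kinase that inhibits pyruvate dehydrogenase and so keeps pyruvate out of the citric acid cycle. Its levels in macrophage-like nuclei were 28.2 CPM (26.0 to 30.5; 622 UMIs) and 28.3 (25.3 to 31.5; 324 UMIs), and in endothelial-like nuclei 28.0 and 32.5. Fibroblast-like nuclei had 18.4 and 17.4 CPM. These 3 classes held its 3 highest levels in both libraries in the main analysis. By marker UMIs of each nucleus, adult fibre-like nuclei (20.3 CPM) in AHRfl/fl and adipocyte-like nuclei (18.7) in AHRmKO took the place of fibroblast-like nuclei (17.6 and 17.4). At a Leiden resolution of 0.4 regenerating fibre-like nuclei (18.9 CPM) did so in AHRfl/fl (18.1). With a minimum of 4000 UMIs adult fibre-like nuclei (14.8 CPM) did so in AHRmKO. The macrophage-like values differed by a log2 ratio of 0.00 (-0.19 to 0.20).
Regenerating fibre-like nuclei gave its lowest ratio with an interval clear of 0, at 16.4 CPM (14.3 to 18.8; 211 UMIs) in AHRfl/fl and 8.41 (6.18 to 11.2; 47 UMIs) in AHRmKO, a log2 ratio of -0.92 (-1.45 to -0.50). In satellite-like nuclei it was at 6.90 and 4.38 CPM, the second of which lay within what free RNA could give.

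Bnip3 (ENSMUSG00000078566, chr7:138890836-138909519, minus strand) encodes a receptor on the outer mitochondrial membrane that marks mitochondria for autophagy. Adipocyte-like and adult fibre-like nuclei held its highest levels in both libraries. Adipocyte-like nuclei were at 138 CPM (113 to 167; 107 UMIs) in AHRfl/fl and 233 (190 to 284; 101 UMIs) in AHRmKO, and adult fibre-like nuclei at 113 (98.7 to 129.7; 213 UMIs) and 67.6 (56.8 to 79.8; 138 UMIs). The intervals of these 2 classes overlapped in AHRfl/fl and not in AHRmKO, and the other 6 classes lay between 10.3 and 26.4 CPM. With the class taken from the markers in each nucleus the adipocyte-like levels were 52.9 and 46.0 CPM and the adult fibre-like levels 33.7 and 46.1.
After each nucleus was thinned to 2000 UMIs, 19.1% of 115 and 30.6% of 85 adipocyte-like nuclei held a Bnip3 UMI (48.7% and 42.4% unthinned), against 4.16% and 2.30% of regenerating fibre-like nuclei (10.2% and 5.99% unthinned). Median depths were 5233 and 3302 UMIs in the adipocyte-like and 5380 and 4615 in the regenerating fibre-like class. The adipocyte-like share was thus higher than the regenerating fibre-like share in each library. Of adult fibre-like nuclei 19.8% of 384 and 13.4% of 584 held a Bnip3 UMI after thinning (35.4% and 19.3% unthinned). Median depths there were 4439.5 and 2991 UMIs. The thinned share was close to the adipocyte-like one in AHRfl/fl and below it in AHRmKO.

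The Bnip3 ratio differed in sign between classes, and none passed 2-fold. It was -0.74 (-1.07 to -0.43) in adult fibre-like, -0.59 (-1.01 to -0.23) in regenerating fibre-like, -0.68 (-1.13 to -0.28) in myocyte-like and -0.50 (-0.92 to -0.12) in satellite-like nuclei. In fibroblast-like nuclei it was 0.54 (0.12 to 0.98) and in adipocyte-like nuclei 0.75 (0.35 to 1.16). By marker UMIs of each nucleus the signs turned to 0.45 in adult fibre-like and -0.20 in adipocyte-like nuclei, so these 2 directions depended on how the classes were made. In barcodes of 200 to under 500 UMIs Bnip3 was lower in AHRmKO (32.6 and 17.1 CPM, ratio -0.91).
In cluster 3, the only adult fibre-like cluster with at least 50 nuclei in both libraries, Bnip3 was at 114 CPM (213 UMIs) in 383 AHRfl/fl nuclei and at 44.2 (12 UMIs) in 71 AHRmKO nuclei, a ratio of -1.36 (-2.34 to -0.53). In cluster 21 it was at 71.2 CPM. The AHRfl/fl level was thus the highest of the 3. Gm45507 lies on the opposite strand within the span of Bnip3.

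Higd1a (ENSMUSG00000038412, chr9:121848563-121858362, minus strand) encodes a small protein of the inner mitochondrial membrane that associates with the respiratory chain. It was the most evenly spread of the genes within AHRfl/fl apart from Kdm3a, between 20.0 CPM in fibroblast-like and 32.6 in endothelial-like nuclei, a span of 1.63-fold. In AHRmKO it lay between 5.24 and 10.4 CPM. Every class was therefore lower in AHRmKO.

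The ratio was called in 6 classes, from -2.53 (-4.32 to -1.32) in endothelial-like to -1.34 (-1.83 to -0.98) in satellite-like nuclei. Without free RNA subtraction it stayed past 2-fold under the other alternatives that held the class, except in satellite-like nuclei with a minimum of 4000 UMIs (-0.93) and in the regenerating fibre-like class with a minimum of 1000 UMIs (-0.88), where AHRfl/fl had 2 UMIs. Macrophage-like nuclei had 473 and 87 UMIs, 21.4 CPM (19.5 to 23.4) and 7.59 (6.08 to 9.36), a ratio of -1.44 (-1.84 to -1.16). In fibroblast-like nuclei it was -0.91 (-1.56 to -0.36), and in adipocyte-like nuclei -1.50 (-3.56 to 0.01), neither of which was called.
Barcodes of 200 to under 500 UMIs held 78.9 Higd1a CPM in AHRfl/fl and 13.2 in AHRmKO, a ratio of -2.54 (-2.71 to -2.45), and no class had a lower ratio. In satellite-like and endothelial-like nuclei the lower end of the Higd1a interval did not exceed what free RNA could give in either library. The levels beside that bound were 20.4 against 26.9 and 7.73 against 7.44 CPM in satellite-like and 32.6 against 31.0 and 5.24 against 2.81 CPM in endothelial-like nuclei. Once the full bound was subtracted 0 and 2.28 Higd1a UMIs were left in satellite-like and 2.38 and 2.32 in endothelial-like nuclei, too few for a ratio. The subtracted ratio was 0.06 in fibroblast-like nuclei (55.2 and 24.4 UMIs left), -0.45 in macrophage-like and -0.80 in myocyte-like nuclei. It was past 2-fold at -1.21 in adult fibre-like (25.2 and 9.96 UMIs left) and -1.48 in regenerating fibre-like nuclei (166 and 23.7). In adipocyte-like nuclei 13.7 and 2.83 Higd1a UMIs were left, likewise too few for a ratio. In cluster 3 AHRmKO nuclei it had 0 of 271550 UMIs, where 3 UMIs, the floor used here for a count of 0, would be 11.05 CPM, against 27.3 in AHRfl/fl. Gm47112 lies on the opposite strand within its span.

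Egln3 (ENSMUSG00000035105, chr12:54178981-54203860, minus strand) encodes PHD3, one of the hydroxylases that mark the alpha subunits, and is itself induced by them. It was present in muscle lineage and endothelial-like nuclei and low elsewhere. Endothelial-like nuclei were at 24.6 CPM (17.3 to 33.9; 37 UMIs) and 28.3 (18.6 to 41.2; 27 UMIs), and adult fibre-like nuclei at 22.4 (16.1 to 30.2) and 20.1 (14.4 to 27.2). Within cluster 3, the adult fibre-like cluster shared by both libraries, it was at 22.5 CPM (42 UMIs) in AHRfl/fl and 55.2 (15 UMIs) in AHRmKO, a log2 ratio of 1.28 (0.34 to 2.18) that passed 2-fold, against -0.15 (-0.81 to 0.50) over the class. Satellite-like nuclei were at 17.6 (15.3 to 20.2) and 22.7 (19.5 to 26.3).
Macrophage-like nuclei had 3.31 and 4.36 CPM and fibroblast-like nuclei 2.78 and 3.47. Adipocyte-like nuclei had 1 UMI in each library. In AHRfl/fl the regenerating fibre-like level, 13.2 CPM, was above the macrophage-like level beyond counting error, and in AHRmKO the myocyte-like level, 12.3, was so.

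Within the satellite-like class Egln3 and Ndrg1 had opposite patterns. Clusters 4 (AHRfl/fl) and 16 (AHRmKO), which carry the division genes Top2a and Kif11 among their leading genes, had 23.8 (19.9 to 28.2) and 30.8 (25.9 to 36.3) Egln3 CPM. Clusters 6 and 18, without such genes in the lead, had 10.3 (7.93 to 13.2) and 8.46 (5.24 to 12.9). For Ndrg1 the first pair had 35.0 (30.2 to 40.3) and 19.2 (15.4 to 23.7) and the second pair 98.0 (90.3 to 106.2) and 49.2 (40.8 to 58.7). In each library the intervals of the pair did not overlap for either gene. The genes were left out of the clustering, but the clusters come from the same nuclei, so this is a description. Between libraries the Egln3 ratio was 0.35 (0.07 to 0.66) in satellite-like and -0.87 (-1.34 to -0.46) in myocyte-like nuclei, and neither passed 2-fold. The first turned to -0.71 with the libraries clustered separately and the second to 0.14 with the class taken from marker UMIs. By cluster, Egln3 was higher in 16 than in 4 and lower in 18 than in 6, each with overlapping intervals. The mix of these clusters differed. Clusters 4 and 6 held 1034 and 1623 of 2694 AHRfl/fl nuclei, and clusters 16 and 18 held 893 and 605 of 1553 AHRmKO nuclei. The part of this mix in the satellite-like ratio was not tested.

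**Figure D3:**
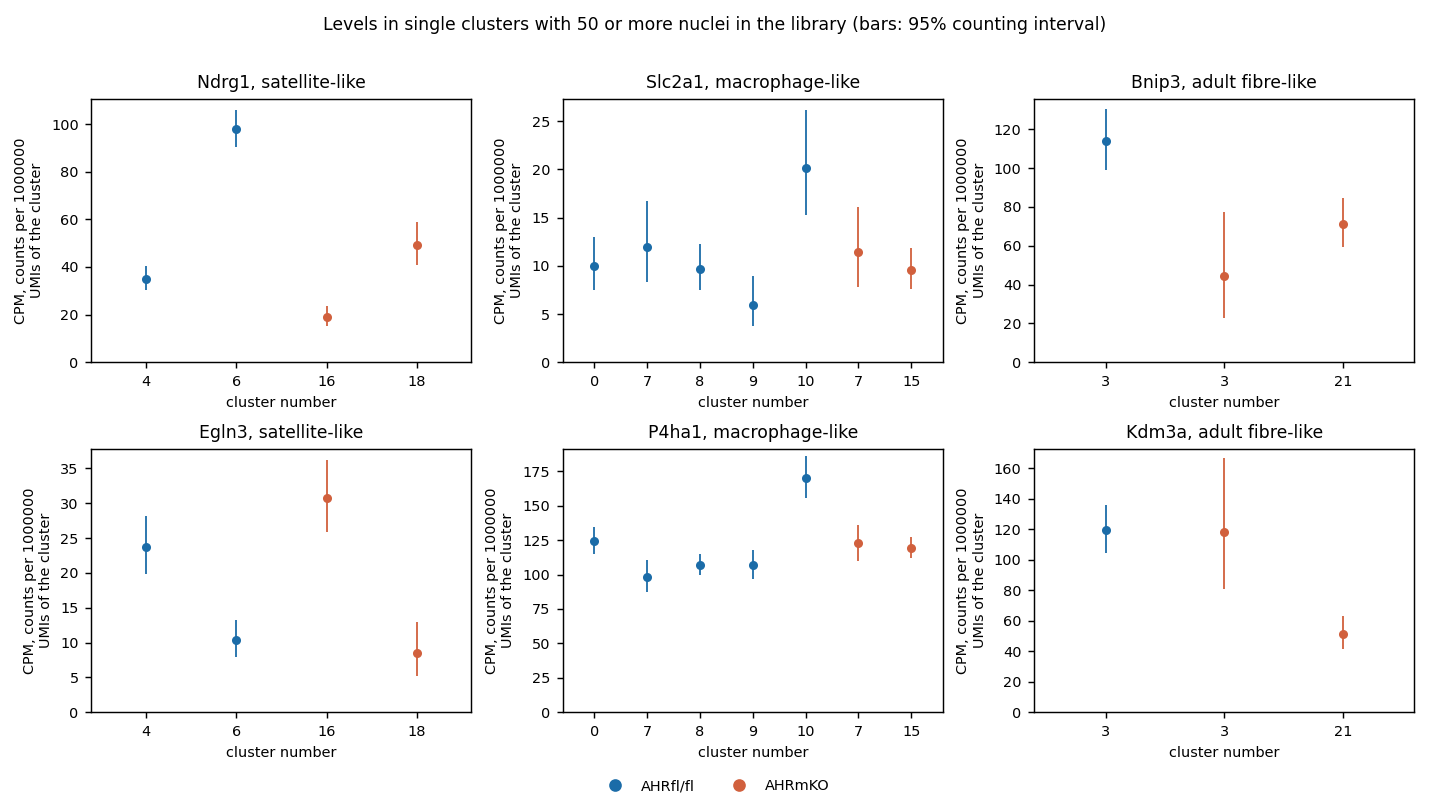
CPM (vertical axis) with 95% counting intervals for 2 genes each in satellite-like, macrophage-like and adult fibre-like clusters (horizontal axis), AHRfl/fl in blue and AHRmKO in orange. Ndrg1 is higher in clusters 6 and 18 than in 4 and 16, Egln3 the reverse, and cluster 10 has the highest macrophage-like Slc2a1 (20.2 CPM) and P4ha1 (170.2 CPM).

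Kdm3a (ENSMUSG00000053470, chr6:71588972-71632990, minus strand) encodes an oxygen-dependent demethylase of histone H3 lysine 9. Its levels were nearly even across classes in AHRfl/fl, from 90.7 CPM in fibroblast-like to 122 in regenerating fibre-like nuclei, a span of 1.35-fold. In AHRmKO 7 classes lay between 102 and 131 CPM, and adult fibre-like nuclei stood apart at 60.2 (50.1 to 71.9; 123 UMIs), against 119 (104 to 135; 223 UMIs) in AHRfl/fl. That ratio was -0.97 (-1.31 to -0.66), just short of 2-fold. With the class taken from the markers in each nucleus the AHRmKO level was 94.2 CPM and the ratio -0.42. Over the alternatives the ratio ran from -1.37 with free RNA subtracted, past 2-fold, to -0.02 with shared clusters only.
Within cluster 3 Kdm3a was at 119 and 118 CPM, a ratio of -0.02 (-0.60 to 0.52), and in cluster 21 of AHRmKO at 51.4 (41.4 to 63.1). The lower fibre value therefore lay in the cluster found almost only in AHRmKO. Fibroblast-like nuclei were at 90.7 (83.7 to 98.1) and 128 (115 to 142), a ratio of 0.49 (0.31 to 0.68), and macrophage-like nuclei at 103 and 129, a ratio of 0.34 (0.24 to 0.43). In barcodes of 200 to under 500 UMIs Kdm3a was likewise higher in AHRmKO, at 55.7 and 70.3 CPM (0.33).

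P4ha1 (ENSMUSG00000019916, chr10:59323296-59373304, plus strand) encodes the catalytic subunit of collagen prolyl 4-hydroxylase, which stabilises the collagen helix. Regenerating fibre-like nuclei had 163 CPM (156 to 170; 2095 UMIs) and 134 (124 to 144; 747 UMIs), and fibroblast-like nuclei 161 (151 to 171) and 157 (143 to 172). Macrophage-like nuclei followed at 118 and 123 CPM. Adult fibre-like nuclei were lowest in both libraries, at 58.6 (48.1 to 70.6) and 54.4 (44.7 to 65.5), and the highest class stood 2.78-fold and 2.88-fold above the lowest. That rank did not hold throughout: by marker UMIs adult fibre-like nuclei were at 106.7 CPM in AHRfl/fl, above endothelial-like nuclei at 94.3, and with thinning endothelial-like nuclei (44.4 and 39.9 CPM) were below adult fibre-like nuclei (71.6 and 47.9) in both libraries.
No P4ha1 ratio passed 2-fold. They ranged from -0.40 (-0.57 to -0.23) in myocyte-like to 0.27 (-0.32 to 0.86) in adipocyte-like nuclei, and the fibroblast-like ratio was -0.04 (-0.20 to 0.12).
Among AHRfl/fl macrophage-like clusters, cluster 10, with Atp6v0d2 and Alcam among its leading genes, had 170.2 P4ha1 CPM (155.2 to 186.3), against 98.5 to 124.5 in clusters 0, 7, 8 and 9. The same cluster had the highest macrophage-like Slc2a1 at 20.2 (15.3 to 26.2), while cluster 9, led by F13a1 and Mrc1, had the lowest at 5.96 (3.78 to 8.95). Cluster 7, with division genes in the lead and 652 and 463 nuclei, is the macrophage-like cluster shared by both libraries. In it P4ha1 was at 98.5 and 122.5 CPM, a ratio of 0.31 (0.08 to 0.55).

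Adm (ENSMUSG00000030790, chr7:110627661-110629820, plus strand) encodes the precursor of adrenomedullin, a secreted peptide that widens vessels. It was highest in fibroblast-like nuclei, at 10.7 CPM (8.36 to 13.4; 73 UMIs) in AHRfl/fl and 24.3 (19.0 to 30.7; 70 UMIs) in AHRmKO. The intervals did not overlap, and the log2 ratio of 1.15 (0.70 to 1.68) was the only call in the higher direction among the members over whole classes. All 15 alternatives left it past 2-fold, though keeping shared clusters only and lifting the upper UMI limit did not change this class. Barcodes of 200 to under 500 UMIs did not share this difference, at 3.28 and 3.25 CPM (-0.01).
Endothelial-like nuclei had 5.32 (2.30 to 10.5; 8 UMIs) and 12.6 (6.497 to 22.0; 12 UMIs) CPM, with overlapping intervals. The other 6 classes lay between 0.537 and 2.31 CPM, from 1 to 16 UMIs each. Gm28863 lies on the opposite strand within its span.

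Ndrg1 (ENSMUSG00000005125, chr15:66929318-66969640, minus strand) encodes a cytoplasmic protein induced by cellular stress and differentiation. Its span of levels between classes, 45.8-fold and 253-fold, was the widest among the genes counted in every class. The lowest Ndrg1 levels, in regenerating fibre-like nuclei, could not be told from free RNA, so the size of this span is uncertain. Endothelial-like nuclei were at 146 CPM (127 to 166; 219 UMIs) and 181 (155 to 210; 173 UMIs), above the satellite-like class beyond counting error in both libraries. By marker UMIs they were at 100.9 and 101.7 CPM, still the highest class. With nuclei thinned to 2000 UMIs, 20.6% and 27.0% of endothelial-like nuclei held an Ndrg1 UMI (38.7% and 49.7% unthinned, at median depths of 3500 and 4225 UMIs), against 0.778% and 0.0999% of regenerating fibre-like nuclei (1.74% and 0.3996% unthinned). Fibroblast-like nuclei had 28.5 and 20.1 CPM and macrophage-like nuclei 24.6 and 20.6.
Satellite-like nuclei were at 67.5 (62.9 to 72.3; 792 UMIs) and 31.1 (27.3 to 35.2; 241 UMIs), a ratio of -1.11 (-1.33 to -0.91). The clusters given above showed the same order, with 98.0 against 49.2 in clusters 6 and 18 and 35.0 against 19.2 in clusters 4 and 16. Neither pair passed 2-fold. Cluster 6, with the higher Ndrg1, held 60.2% of the class in AHRfl/fl, and cluster 16, with the lower, 57.5% in AHRmKO. The part of this mix in the class ratio was not tested. With the libraries clustered separately the class ratio was -0.61, and with a minimum of 4000 UMIs it was -0.95.
In regenerating fibre-like nuclei the called ratio of -1.60 (-4.10 to -0.69) rested on 41 and 4 UMIs, 3.18 and 0.716 CPM. Both levels were under the most that free RNA could give, 3.23 and 2.65, so they could not be told from free RNA. The endothelial-like ratio was 0.31 (0.02 to 0.61). Gm17035 and Gm2895 lie on the opposite strand within its span.

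Ankrd37 (ENSMUSG00000050914, chr8:45996902-46005707, minus strand) encodes a small ankyrin repeat protein and was sparse, with 75 UMIs at most in any class and library. Endothelial-like nuclei had 6.66 CPM (3.19 to 12.2; 10 UMIs) and 7.33 (2.95 to 15.1; 7 UMIs). Regenerating fibre-like nuclei had 5.82 (4.58 to 7.30; 75 UMIs) and 3.40 (2.05 to 5.31; 19 UMIs), a ratio of -0.70 (-1.59 to -0.04). No Ankrd37 UMI was counted in adipocyte-like nuclei (0 in each library), where the floor of 3 UMIs would be 3.88 and 6.93 CPM. Ufsp2 and Lrp2bp overlap it on the opposite strand, so its reads could not be told from theirs if strand was not used in counting. Its low-UMI barcodes held 6.66 and 1.74 CPM, a ratio of -1.68.

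The order of the 8 classes was similar between libraries for most genes. Over 8 classes, Spearman's rho between the libraries was 0.95 for Ndrg1 and Ankrd37, 0.90 for P4ha1, 0.88 for Pdk1, 0.83 for Egln3, 0.76 for Adm, and 0.62 for Slc2a1 and Bnip3. It was -0.26 for Kdm3a and -0.38 for Higd1a, the genes with the flattest profiles. These are descriptions over classes that share their library and free RNA. Over the 16 points of class and library, on a log2 scale, Egln3 and Ankrd37 had the highest Pearson correlation (0.69) and Ankrd37 and Bnip3 the lowest (-0.74).

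By the same measure the genes nearest to each member were sought among 11726 genes with 20 or more CPM at a point. Nearest were Cdc37 to Slc2a1 (0.89), Nostrin to Pdk1 (0.90), Hibch and Plin4 to Bnip3 (0.94 and 0.93), and Ttll7 to Egln3 (0.87). Aste1 was nearest to Kdm3a (0.81), Sec24d to P4ha1 (0.83), Ppp1r2 to Adm (0.93), Mtmr2 to Ndrg1 (0.94) and Sh3bgrl2 to Ankrd37 (0.92). Higd1a was nearest to Gm31763 (0.96), Ndufb2 (0.96) and Uqcr11 (0.96), the last 2 of which encode subunits of the respiratory chain. Points share libraries and depth, and with so many genes compared a high value is no finding.

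The other genes of the pathway were taken from 2 lists, 12 regulators of the hypoxia-inducible factors and 30 further targets. In adult fibre-like nuclei 3 of 11 regulators with 10 UMIs were higher in AHRmKO and 0 lower, beside the 9.24% and 18.3% of all genes. These were Epas1, which encodes the alpha subunit HIF2A, at 9.58 and 55.8 CPM (log2 ratio 2.48; 1.82 to 3.35), Egln1 at 28.2 and 60.7 (1.09) and Egln2 at 7.45 and 22.5 (1.53), the last 2 named after their values were seen. Hif1a was at 103 and 60.7 CPM there (-0.76; -1.10 to -0.43) and Arnt at 241 and 188 (-0.36; -0.56 to -0.16). The list's median was 0.57, against -0.11 over all genes and -0.45 over the members.

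Of 25 further targets in adult fibre-like nuclei 4 were higher and 2 lower, beside the same shares of all genes. Vegfa, the main growth factor for vessels, was at 74.5 CPM (140 UMIs) and 862 (1761 UMIs), a ratio of 3.52 (3.28 to 3.79). Slc16a3, which exports lactate, was at 20.2 and 133.7 (2.69; 2.23 to 3.25). Fam162a (46.9 and 18.6; -1.31) and Pfkfb4 (267 and 129.8; -1.04) were lower. In the same nuclei where Vegfa and Epas1 were higher in AHRmKO, none of the 8 members with 10 UMIs was called higher over the class, and Slc2a1 and Higd1a were called lower. In cluster 3 alone Egln3 was called higher, as given above, while Bnip3 (-1.36) and Higd1a (51 and 0 UMIs) were called lower. The share of all genes called within that cluster is not given here. The fibre nuclei of the libraries lay in different clusters, and the part of this in these values was not tested.

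In satellite-like nuclei 1 of 12 regulators was higher and 0 lower, and 1 of 30 further targets was higher and 2 lower, beside 5.65% and 16.7% of all genes. Egln2 was at 12.5 and 35.2 CPM (1.45; 1.196 to 1.79) and Vegfa at 26.4 and 65.2 (1.29; 1.10 to 1.51), while Car9 (5.37 and 1.16; -1.82) and Loxl2 (9.29 and 4.12; -1.08) were lower. Pfkfb3, an activator of glycolysis, was at 18.4 and 35.8 (0.94) and Fam162a at 57.9 and 35.2 (-0.71). Macrophage-like nuclei had 0 of 12 regulators called, and 1 of 30 targets was higher and 3 lower, beside 3.73% and 16.9% of all genes, with Ppp1r3c higher at 1.09 and 2.97 CPM (1.13; 0.65 to 2.27). Lower were Loxl2 at 4.76 and 0.698 CPM (-2.13; -4.02 to -1.74), Stc2 at 3.17 and 1.31 (-1.02; -2.19 to -0.46) and Fam162a at 21.1 and 10.3 (-1.001; -1.34 to -0.74). Vegfa there was at 5.39 and 10.9 (0.95; 0.64 to 1.39) and Egln2 at 16.5 and 31.0 (0.89; 0.69 to 1.12), neither past 2-fold.
Among the classes that were single shared clusters, Vegfa was at 40.0 and 119 CPM in fibroblast-like nuclei (1.56; 1.34 to 1.81), where Adm was also higher, and at 138 and 399.8 in adipocyte-like nuclei (1.53; 1.18 to 1.89). Fibroblast-like nuclei had 4 of 30 further targets higher and 3 lower, beside 5.63% and 17.7% of all genes. Adipocyte-like nuclei had 5 and 1 of 24, beside 7.53% and 12.9%, and endothelial-like nuclei 1 and 5 of 24, beside 4.8% and 18.1%. Epas1 was highest in endothelial-like nuclei, at 245 and 448 CPM (0.87; 0.67 to 1.08). By the rule for free RNA given above, Vegfa stood above it in all 8 classes of both libraries, where the low-UMI barcodes held 19.1 CPM in AHRfl/fl and 40.1 in AHRmKO. Of the other pathway levels named, Egln2 in AHRfl/fl adult fibre-like, Loxl2 in AHRfl/fl satellite-like nuclei, Car9 and Pfkfb3 in AHRmKO satellite-like nuclei, and Loxl2, Stc2 and Ppp1r3c in macrophage-like nuclei of both libraries did not. Regenerating fibre-like nuclei had 0 of 30 further targets higher and 4 lower, beside 5.83% and 17.6% of all genes, and myocyte-like nuclei 1 and 3, beside 6.18% and 15.6%.

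**Figure D4:**
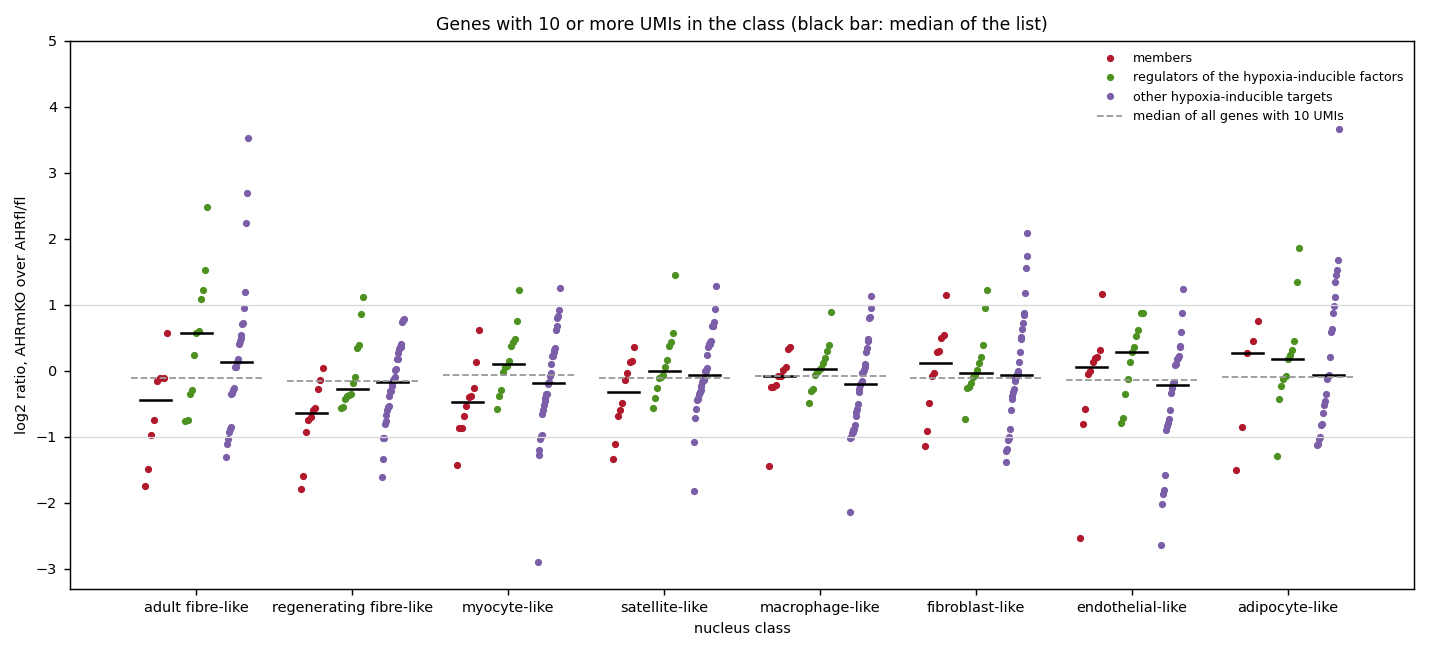
Log2 ratio of AHRmKO over AHRfl/fl (vertical axis) by nucleus class (horizontal axis) for members (red), regulators of the factors (green) and further targets (purple) with 10 or more UMIs; black bars are list medians and grey dashed lines the median of all genes. In adult fibre-like nuclei the regulators' median is 0.57 and the members' -0.45, and Vegfa is the highest point at 3.52.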

How the data were processed

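Nuclei from 2 libraries were profiled with the Chromium 3′ HT v3.1 chemistry, per the labels' protocols. The files deposited by the authors hold raw UMI counts of every gene in all barcodes, without normalisation. Per the submitters' processing notes Cell Ranger 7.0.1 and mm10 were used, and whether intronic reads or strand entered the counts is not given in the sources used here. Gene positions are from GENCODE M21 (GRCm38, the assembly of mm10).

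Barcodes with 2000 or more UMIs and 200 or more genes were taken. Mitochondrial shares above 5% and 8.97% (a floor of 5%, or 3 median absolute deviations over the median where higher) and the top 6.79% and 3.10% of doublet scores (0.4% per 1000 barcodes, Scrublet) were left out. Counts were scaled to 10000 per nucleus. The 2000 variable genes, without the members, the 42 other pathway genes and mitochondrial genes, gave 30 principal components, 15 neighbours and Leiden clusters at resolution 0.8 over both libraries without integration (Python 3.11.15, numpy 2.4.6, scanpy 1.11.5, pandas 2.3.3, igraph 0.11.9, scipy 1.17.1, scikit-learn 1.9.0). Each marker of 17 classes was compared with its median over the other clusters (10 CPM added). Clusters were named after the class with the largest share of markers 2-fold or more above that median (at least 3 markers). A cluster stayed unnamed where its leading 10 genes pointed to another class or its median UMI count was above 1.75 times that of all nuclei, a limit set after seeing the data. Names are thus rebuilt from markers and may differ from the study's.

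UMIs were summed per class and library. Log2 ratios were taken after adding 0.5 CPM to each level, so changes of low genes are understated, and their intervals come from the binomial distribution of 1 library's count given the sum. Intervals are at 95% and cover counting error only. No p-value was computed. Ratios and intervals were tested on simulated counts. Named pathway genes were the 3 highest and 3 lowest ratios with 30 or more UMIs in adult fibre-like, satellite-like and macrophage-like nuclei, plus Hif1a, Epas1, Arnt and Vegfa. The members, lists and rules were chosen with earlier results of these data known.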

Additional observations from a re-analysis of the deposited data

Results flagged for a closer look

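For 4 genes the ratio of AHRmKO over AHRfl/fl had a counting interval above 0 in 1 class and below 0 in another, and the difference between the classes was not tested. Bnip3 was at 0.75 in adipocyte-like and -0.74 in adult fibre-like nuclei, and both signs turned, to -0.20 and 0.45, with the class taken from the markers in each nucleus. Kdm3a was at 0.49 in fibroblast-like and -0.97 in adult fibre-like nuclei, where it was -0.02 within the shared cluster 3 and -1.37 with free RNA subtracted. Egln3 was at 0.35 in satellite-like and -0.87 in myocyte-like nuclei. The satellite-like clusters went both ways and differed in mix between libraries, as given above. The Egln3 signs turned to -0.71 in satellite-like nuclei with the libraries clustered separately and to 0.14 in myocyte-like nuclei with marker-defined classes. Ndrg1 was at 0.31 in endothelial-like and -1.60 in regenerating fibre-like nuclei, the last within what free RNA could give.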

How the results depend on the processing

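Over the alternatives of minimum UMIs, filters, clustering, class definition, thinning, free RNA, scaling, weighting, totals, added value and, chosen after seeing the data, shared clusters only and no upper UMI limit, 1024 of the gene ratios stayed within their counting interval, 74 moved out of it and 2 called ratios changed sign. These were those of Higd1a with free RNA subtracted, 1.002 in satellite-like nuclei, which is set by the 0.5 CPM added since 0 UMIs were left in AHRfl/fl, and 0.26 in endothelial-like nuclei, on 2.38 and 2.32 UMIs left. Of ratios not called but with an interval without 0, 8 turned sign, those of Bnip3 in adult fibre-like and adipocyte-like, Egln3 in satellite-like and myocyte-like and Higd1a in fibroblast-like nuclei with the values given above, and those of Bnip3, Kdm3a and Ankrd37 in regenerating fibre-like nuclei with a minimum of 1000 UMIs. That class then held only 164762 UMIs in AHRfl/fl, against 12875752 in the main analysis, with 2 Bnip3, 11 Kdm3a and 0 Ankrd37 UMIs, too few to compare. Where the interval held 0, 81 values had the other sign. List medians were held against the medians of their members' interval ends, a wide range such as -0.76 to 0.54 in fibroblast-like nuclei. Of these medians 109 stayed within it. The fibroblast-like median was nonetheless below 0 in 3 of 15 alternatives and the endothelial-like one in 6 of 15. The regenerating fibre-like median moved to 0.25 in that same small class, where the median of all genes was 0.17. With the class taken from the markers in each nucleus, which matched the cluster's class for 72.7% of nuclei, the log2 ratio of adipocyte-like Ndrg1 over barcodes of 200 to under 500 UMIs reversed to 0.0315 in AHRfl/fl and 0.00987 in AHRmKO. The cause of these changes was not tested. Of levels 1163 stayed within their interval and 137 did not. Some ratios could not move. Lifting the upper UMI limit changed only the macrophage-like class, and keeping shared clusters only left the fibroblast-like, endothelial-like and adipocyte-like classes unchanged. Such unchanged values are counted in the numbers above and below. The counts of gene ratios also include the 7 combinations under 10 UMIs. The called ratios of Adm in fibroblast-like and Higd1a in adult fibre-like nuclei stayed past 2-fold, whatever their interval, in 15 of 15 alternatives, those of Higd1a in 14 of 15 in macrophage-like and endothelial-like, 13 of 14 in regenerating fibre-like, 12 of 14 in satellite-like and 8 of 9 in myocyte-like nuclei, and those of Slc2a1 in adult fibre-like and fibroblast-like nuclei in 14 and 11 of 15. For Ndrg1 the ratio did so in 12 of 14 in satellite-like and 9 of 14 in regenerating fibre-like nuclei, 1 of these 9 resting on 1 UMI in the small class above. No myocyte-like class with 50 nuclei in both libraries was found at resolutions 0.4 and 1.2, with minimums of 1000 and 4000 UMIs, with separate clustering or with shared clusters only, no adipocyte-like class with separate clustering or a minimum of 4000 UMIs, and no regenerating fibre-like or satellite-like class with shared clusters only. Scaling by the median ratio of genes with 30 UMIs in both libraries shifted ratios by at most 0.12 (endothelial-like). No paired analysis was possible because each group has 1 library. Depth limits genes such as Adm, with 1 to 16 UMIs per library in 6 of 8 classes.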

Other observations

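Cluster 14, left unnamed with leading genes Ebf1, Thbs4 and Cdh19, had 98 nuclei in AHRfl/fl and 38 in AHRmKO. In its AHRfl/fl nuclei Slc2a1 was at 59.0 CPM (38.5 to 86.4; 26 UMIs), against 29.9 (21.8 to 40.1) in endothelial-like nuclei, the highest of the named classes, with overlapping intervals. P4ha1 was at 147.5 (113.8 to 188.0; 65 UMIs) and Ndrg1 at 43.1 (26.0 to 67.3; 19 UMIs) CPM in the same nuclei, and Adm had 0 UMIs, where the floor of 3 UMIs would be 6.81 CPM.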
